A study of Mus musculus with 4 samples.

Results

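The genes described here encode receptors, a ligand and a signalling kinase of the cytokines that share the common gamma chain. They were Il7r, Il2rg, Il2ra, Il15, Il15ra, Il21r, Jak1 and Jak3, 8 genes of which 6 had a probe set of their own among the 18782 genes measured. The probe set of Jak3 carries the names of 2 genes and was not used, and Il2rg, the gene of the common gamma chain itself, was not analysed here. Each of the 6 genes had 1 such probe set, so the rule for choosing among probe sets of a gene by their mean level had nothing to choose.

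The cells were alveolar macrophages, which live in the air spaces and clear surfactant and inhaled particles. They were sorted from the lungs of adult mice on the C57BL/6 background. KO mice had the genotype CD11cCre/PPARg fl/fl, in which Cre driven by the CD11c promoter recombines floxed Pparg, and WT mice were PPARg fl/fl, so both groups have the floxed alleles. For each of the 2 genotypes there were 2 biological replicates on 1 Affymetrix array each, every one made from the pooled cells of 2 mice. The CD11c promoter is active in dendritic cells as well as in alveolar macrophages, so Cre is not limited to the cells studied. The labels call the WT cells mature and the KO cells arrested at an immature stage. Both were gated as CD45-positive, CD11c-high, autofluorescent and Siglec-F-positive, but WT cells were taken as CD11b-low and KO cells as CD11b-high. The series title puts PPARγ, the lipid-sensing nuclear receptor that Pparg encodes, at the centre of the question of alveolar macrophage identity.

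Interleukins 2, 4, 7, 9, 15 and 21 signal through receptors that each combine the common gamma chain with other chains, such as the one encoded by Il7r or Il21r. The common chain brings the kinase JAK3 and its signalling partner chain brings JAK1, and together they activate STAT transcription factors, which switch on survival genes and the SOCS and CISH inhibitors that end the signal. The IL-7 receptor chain also pairs with the chain encoded by Crlf2 to form the receptor for TSLP, an epithelial cytokine. Il7r is best known from lymphocytes and their progenitors, and in the mouse it is also found on fetal monocytes that give rise to tissue macrophages.

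In KO macrophages 2 receptor genes of the group were far higher. Il7r was 16.0 times its WT level and Il21r 4.58 times, while Il2ra, Il15ra, the ligand gene Il15 and the kinase gene Jak1 did not pass the test. The 2 calls among 6 genes stand beside 14.3% of all genes called in either direction and 7.41% called as higher in KO (limma, adjusted p under 0.05 over all genes). The genes were put together with results of these arrays known, so these calls are not independent evidence of a direction.

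To show the stretch of DNA that precedes the genes with the large differences, the 250 bases before the annotated start of Il7r and Il21r are given here 5′ to 3′ on the strand of the gene, from RefSeq, build GRCm38.p6. Il7r lies on the minus strand (chr15:9529877-9530126) and Il21r on the plus strand (chr7:125603179-125603428). Capitals mark matches to 4 motifs searched on both strands, namely TTCNNNGAA (STAT factors), AGGAAGT (PU.1, a transcription factor of macrophages), AGGTCA (half-site of nuclear receptors) and AGGTCANAGGTCA (the DR1 element that PPARγ binds as a dimer with RXR, which contains the half-site).
Il7r: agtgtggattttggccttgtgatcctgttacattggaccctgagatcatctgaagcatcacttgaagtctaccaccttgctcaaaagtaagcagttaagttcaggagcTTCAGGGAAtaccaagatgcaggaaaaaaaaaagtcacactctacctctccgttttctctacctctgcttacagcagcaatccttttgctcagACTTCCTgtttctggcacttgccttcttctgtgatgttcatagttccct
Il21r: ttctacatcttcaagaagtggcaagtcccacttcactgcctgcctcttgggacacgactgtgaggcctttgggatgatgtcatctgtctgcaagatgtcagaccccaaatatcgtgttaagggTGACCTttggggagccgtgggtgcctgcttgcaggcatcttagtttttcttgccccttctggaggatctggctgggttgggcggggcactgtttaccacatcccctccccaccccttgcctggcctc

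The Il7r window held 1 match to the STAT motif, TTCAGGGAA, and 1 to the PU.1 motif, read as ACTTCCT from the opposite strand. The Il21r window held 1 nuclear receptor half-site, read as TGACCT from the opposite strand, and no STAT or PU.1 match. Of 32851 RefSeq windows of this length, 7.02% held the STAT motif, 7.69% the PU.1 motif, 14% the half-site and 0.0335% the DR1 element. Il2ra, whose level did not pass the test, had 1 PU.1 match in its window. Of the 8 genes, 7 had such a window, and none of these windows matched DR1. A match says only that these letters are present.

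The arrays were 1-colour and their values are log2 expression values per probe set after RMA, on which 1 unit is a factor of 2. All arrays had a median of 3.14 and a range from 0.96 to 12.11. Pparg read 9.59 and 9.73 in KO cells, against 9.69 and 9.75 in WT cells, and KO minus WT was -0.06 ± 0.10 (SE; adjusted p = 0.79). The position of its probes is not given in the files, so its level cannot serve as a check of the deletion. Of the gate genes, Itgam (CD11b) was higher in KO by 5.76 ± 0.14 (adjusted p = 1.25e-05) and Siglecf lower by -3.27 ± 0.17 (adjusted p = 1.64e-04). These are sorted cells measured in bulk, in which fewer cells of a type and less RNA per cell cannot be told apart.

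Among the ligands, Il15 encodes interleukin 15, which macrophages and dendritic cells present to lymphocytes bound to the IL-15 receptor chain. Il15 read 4.95 and 4.74 in KO cells, against 5.09 and 4.82 in WT cells. The groups overlapped, with the higher KO array above the lower WT array. The difference was -0.11 ± 0.13 (SE; adjusted p = 0.671), with a 95% interval from -0.44 to 0.21, and it was 0.02 without WT replicate 1.

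Il7r, the gene of the IL-7 receptor alpha chain, whose upstream sequence holds the STAT and PU.1 matches above, read 7.73 and 6.84 in KO cells, against 3.12 and 3.45 in WT cells. Both KO arrays were high and both WT arrays lay close to the median of all probe sets, with no overlap. The means were 7.28 ± 0.63 in KO and 3.28 ± 0.24 in WT (SD, n = 2 each). The difference of 4.0 ± 0.29 (SE; adjusted p = 5.36e-04) had a 95% interval from 3.30 to 4.70. The smallest gap between a KO and a WT array was 3.39 and the largest 4.61, so even the closest pair lay apart by more than the 0.89 between the KO arrays. Only 0.277% of genes differed by as much as Il7r in either direction. RMA compresses differences of dim probe sets, and with a WT level near the median the fold may be understated.

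Il21r encodes the receptor chain for interleukin 21, a cytokine of helper T cells that also acts on macrophages. Il21r read 5.62 and 5.42 in KO cells, against 3.22 and 3.43 in WT cells. The arrays of a genotype lay 0.20 apart in each case, and the KO arrays were well above the WT arrays. The means were 5.52 ± 0.14 in KO and 3.33 ± 0.14 in WT (SD, n = 2 each), and the difference was 2.19 ± 0.12 (SE; adjusted p = 2.23e-04), with a 95% interval from 1.89 to 2.49. A difference of this size or larger was found for 1.36% of genes. Il7r and Il21r kept their side of the test when any 1 array was left out, Il7r with differences between 3.55 and 4.44 and Il21r between 2.09 and 2.30.

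**Figure D1:**
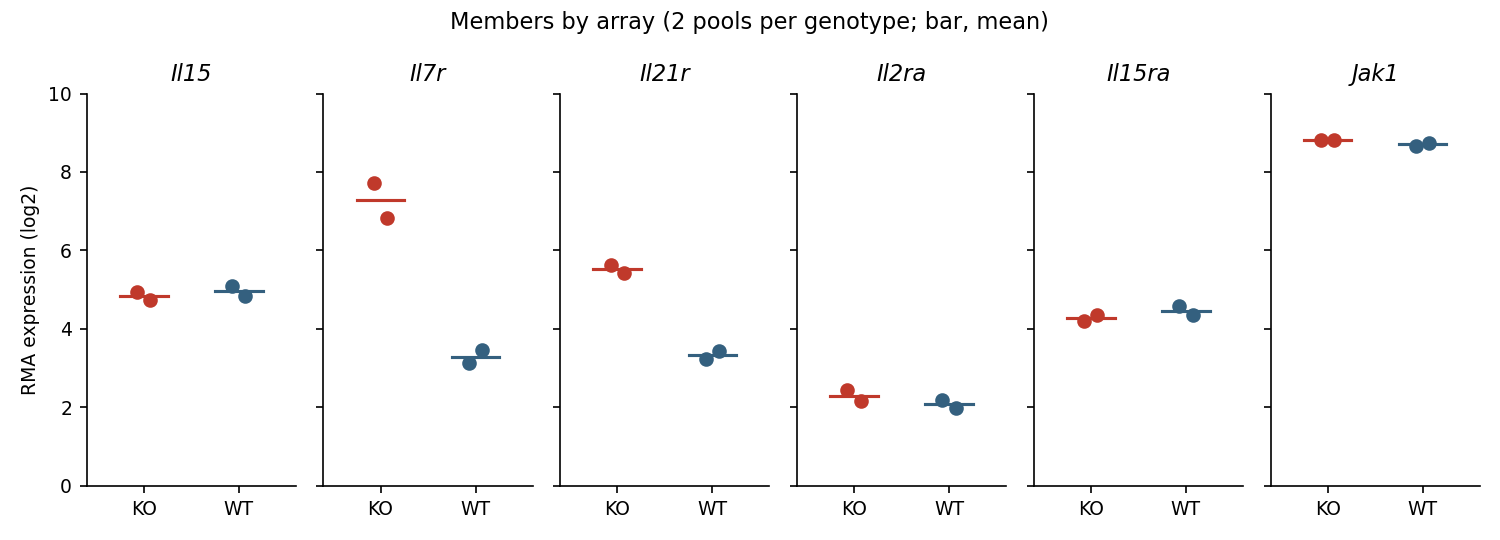
RMA expression (log2, vertical axis) of Il15, Il7r, Il21r, Il2ra, Il15ra and Jak1 on each array, KO left and WT right in each panel; points are arrays, each a pool of cells from 2 mice, and bars are means of 2 arrays. KO points stand clear above WT points for Il7r (7.73 and 6.84 against 3.12 and 3.45) and Il21r (5.62 and 5.42 against 3.22 and 3.43); levels of different genes come from different probes and are not set against each other.

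The receptor chains that are particular to interleukins 2 and 15 did not pass the test. Il2ra, the gene of CD25, the chain that gives the IL-2 receptor its high affinity, read 2.44 and 2.15 in KO cells, against 2.19 and 1.98 in WT cells. All 4 values lay below the array median of 3.14, where a change would be hard to see, and the groups overlapped. The difference was 0.21 ± 0.14 (SE; adjusted p = 0.411; 95% interval from -0.12 to 0.54), and it was 0.07 without KO replicate 1 and 0.35 without KO replicate 2.

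Il15ra, the gene of the chain that carries interleukin 15 to other cells, read 4.19 and 4.35 in KO cells, against 4.57 and 4.35 in WT cells. The higher KO array and the lower WT array were 0.003 apart, and the difference was -0.19 ± 0.12 (SE; adjusted p = 0.404; 95% interval from -0.49 to 0.11). It lay between -0.30 and -0.08 when 1 array was left out, with -0.11 without KO replicate 1 and -0.08 without WT replicate 1.

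Jak1, the gene of the kinase bound to the partners of the common chain, read 8.83 and 8.81 in KO cells, against 8.66 and 8.74 in WT cells. Both KO arrays lay above both WT arrays, but by as little as 0.07, and the difference of 0.12 ± 0.10 (SE) did not pass the test (adjusted p = 0.516; 95% interval from -0.11 to 0.35). Of the 6 genes, 3 had both KO arrays above both WT arrays, beside 25.3% of all genes, and Jak1 was 1 of these 3. The median difference of the 6 genes was 0.16, against -0.02 over all genes. With 2 arrays a genotype, an exact permutation test on a single gene cannot give a two-sided p below 0.333, and the calls rest on limma's sharing of variance between genes.

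**Figure D2:**
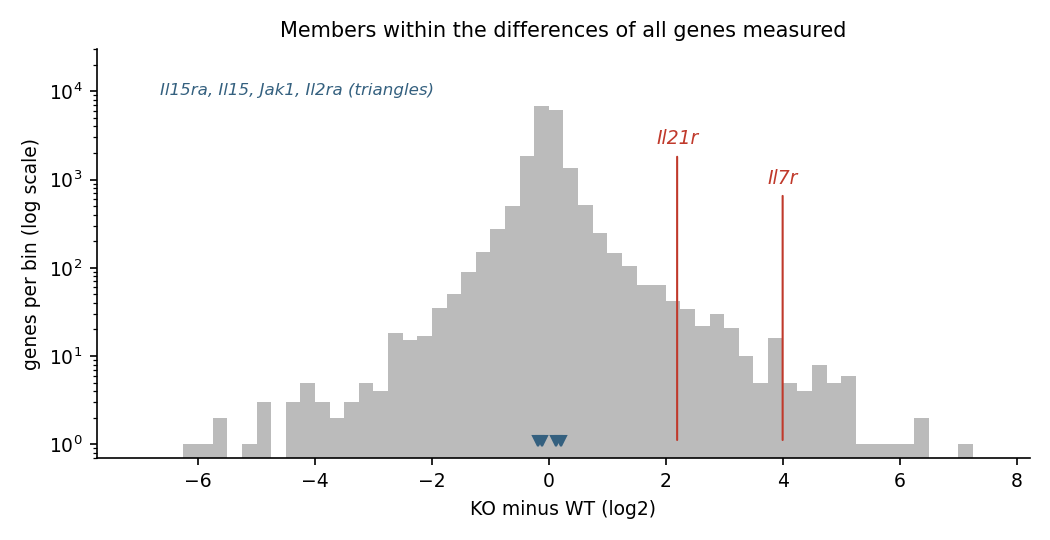
Distribution of KO minus WT differences (log2, horizontal axis) over all 18782 genes, in bins of fixed width with the number of genes on a log axis; lines mark Il7r and Il21r and triangles the 4 members that did not pass the test. Il7r at 4.0 and Il21r at 2.19 lie in the right tail, and Il15ra, Il15, Jak1 and Il2ra between -0.19 and 0.21.

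The genes next to Il7r and Il21r in the annotation did not pass the test. Il21r is flanked by Il4ra, which encodes the alpha chain of the IL-4 receptor, and by Gtf3c1. Il4ra read 7.99 and 8.05 in KO cells, against 7.82 and 7.98 in WT cells (difference 0.12 ± 0.10, SE; adjusted p = 0.552), and Gtf3c1 differed by -0.04 ± 0.14 (adjusted p = 0.892). The neighbours of Il7r are Capsl, which differed by -0.05 ± 0.11 (adjusted p = 0.825), and Spef2, which differed by 0.39 ± 0.22 (adjusted p = 0.342). Il2ra and Il15ra are neighbours of each other, and neither passed the test. Beside Il15, Inpp4b was higher in KO by 1.20 ± 0.12 (adjusted p = 0.00149) and Zfp330 differed by 0.01 ± 0.11 (adjusted p = 0.955).

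A wider list of 44 genes of the pathway, of which 41 were measured, held 12 genes called as higher and 3 called as lower in KO. Over all genes 7.41% were higher and 6.86% lower. Of the 35 measured genes outside the 8 genes named first, 10 were higher and 3 lower. The list and its groups by role were also chosen with earlier results of these data known. Their counts are therefore not independent evidence of a direction. The median difference over the list was 0.12, beside -0.02 over all genes. With KO replicate 1 left out 5 list genes were higher, with KO replicate 2 left out 7, with WT replicate 1 left out 8 and with WT replicate 2 left out 10. In each of these fits 1 list gene was lower.

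None of the 7 ligand genes passed the test. Il7, which encodes the ligand of the IL-7 receptor, read 2.21 and 2.01 in KO cells, against 1.70 and 1.74 in WT cells. These values lie below the array median on every array, and the difference of 0.39 ± 0.11 (SE) had an adjusted p of 0.0711. Il2 differed by 0.23 ± 0.11 (adjusted p = 0.259). All ligand genes but Il15 were below the array median on every array.

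Of 8 measured receptor chains, 3 were higher in KO and 0 lower, beside 7.41% higher and 6.86% lower over all genes. Of the 4 measured chains outside the 8 genes named first, 1 was higher. This was Crlf2, the partner of the IL-7 receptor chain in the TSLP receptor. Crlf2 read 6.90 and 6.94 in KO cells, against 6.43 and 6.50 in WT cells. The difference was 0.45 ± 0.10 (SE; adjusted p = 0.0269), a small shift that did not pass the test when any 1 array was left out (adjusted p between 0.0663 and 0.127). Il2rb, the signalling chain shared by the receptors for interleukins 2 and 15, read 2.67 and 2.64 in KO cells, against 2.63 and 2.58 in WT cells (difference 0.05 ± 0.09, SE; adjusted p = 0.804), all below the array median.

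Among the signalling genes, 0 of 3 measured JAK kinases passed the test. Of 4 measured STAT genes 2 were lower in KO, beside 6.86% of all genes. Stat5a, one of a pair of genes for STAT5, the main factor downstream of interleukins 2, 7 and 15 and of the macrophage growth factor GM-CSF, read 6.23 and 6.37 in KO cells, against 7.23 and 7.13 in WT cells. It fell by 0.88 ± 0.11 (SE; adjusted p = 0.00324). Stat5b, the other gene of the pair, read 6.19 and 6.29 in KO cells, against 6.74 and 6.63 in WT cells, and fell by 0.44 ± 0.10 (adjusted p = 0.036). Stat5b was not past the test without any 1 array (adjusted p between 0.067 and 0.17) nor with the replicate number as a block (adjusted p = 0.0642), whereas Stat5a was past it in each of these fits.

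Of 8 adaptors and phosphatases, 1 was higher and 1 lower, beside 7.41% and 6.86% of all genes. Pik3cd, which encodes the leukocyte isoform of the PI3-kinase catalytic subunit, was higher by 0.61 ± 0.10 (SE; adjusted p = 0.0103). Ptpn6, the gene of the phosphatase SHP-1, which damps cytokine receptor signals, was lower by -0.50 ± 0.10 (adjusted p = 0.0249). Pik3cd lost its call without KO replicate 1 (adjusted p = 0.0716), and Ptpn6 lost it without any 1 array (adjusted p between 0.0663 and 0.132).

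All 4 feedback inhibitor genes were called as higher in KO, Socs1 only just, beside 7.41% of all genes. Socs3, which encodes an inhibitor induced mainly through STAT3, read 7.35 and 7.24 in KO cells, against 4.06 and 3.66 in WT cells, a rise of 3.43 ± 0.15 (SE; adjusted p = 9.55e-05). Cish, an inhibitor gene induced by STAT5, read 8.43 and 8.31 in KO cells, against 6.84 and 7.55 in WT cells, and was higher by 1.17 ± 0.23 (adjusted p = 0.0198). The WT arrays of Cish lay 0.71 apart, and the closest KO and WT arrays were separated by 0.75.

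Socs2 was higher by 0.95 ± 0.13 (SE; adjusted p = 0.00596) and Socs1 by 0.48 ± 0.12 (adjusted p = 0.0465). Cish lost its call without KO replicate 1 (adjusted p = 0.121) or KO replicate 2 (adjusted p = 0.0959), Socs2 without KO replicate 1 (adjusted p = 0.0531), and Socs1 without any 1 array (adjusted p between 0.0564 and 0.21), with the replicate number as a block (0.0771), with an intensity trend (0.072) and with every probe set tested (0.0523), while Socs3 passed in all of these. A second probe set of Socs3 differed by 2.52 ± 0.22 and a second one of Socs2 by 0.80 ± 0.11. These inhibitors answer to many cytokines besides those of the common gamma chain.

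Of 7 survival and growth genes, 4 were higher and 0 lower in KO, beside 7.41% higher and 6.86% lower over all genes. Bcl2, the survival gene classically maintained by interleukin 7 in lymphocytes, read 4.39 and 3.74 in KO cells, against 2.87 and 2.94 in WT cells, a difference of 1.17 ± 0.21 (SE; adjusted p = 0.0149). Its other probe set read 2.23 and 2.46 in KO cells, against 2.38 and 2.30 in WT cells, and differed by 0.01 ± 0.11. These values lay below the array median of 3.14, where a change would be hard to see, so the rise rests on the brighter probe set. Without WT replicate 1 the difference of the brighter probe set was 1.13, and it narrowly lost its call. Myc, a driver of cell growth, read 8.49 and 8.65 in KO cells, against 7.52 and 7.58 in WT cells, and was higher by 1.02 ± 0.10 (adjusted p = 0.00179), also without any 1 array.

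Bcl2l11, which encodes the death-promoting protein BIM, was higher by 0.86 ± 0.16 (SE; adjusted p = 0.0186) and the kinase gene Pim1 by 0.63 ± 0.15 (adjusted p = 0.039). The higher genes of this group thus include a death-promoting gene beside survival and growth genes. Bcl2l11 lost its call without KO replicate 1 (adjusted p = 0.109) or KO replicate 2 (adjusted p = 0.0968), and Pim1 without KO replicate 1 (adjusted p = 0.157), KO replicate 2 (adjusted p = 0.168) or WT replicate 1 (adjusted p = 0.111).

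**Figure D3:**
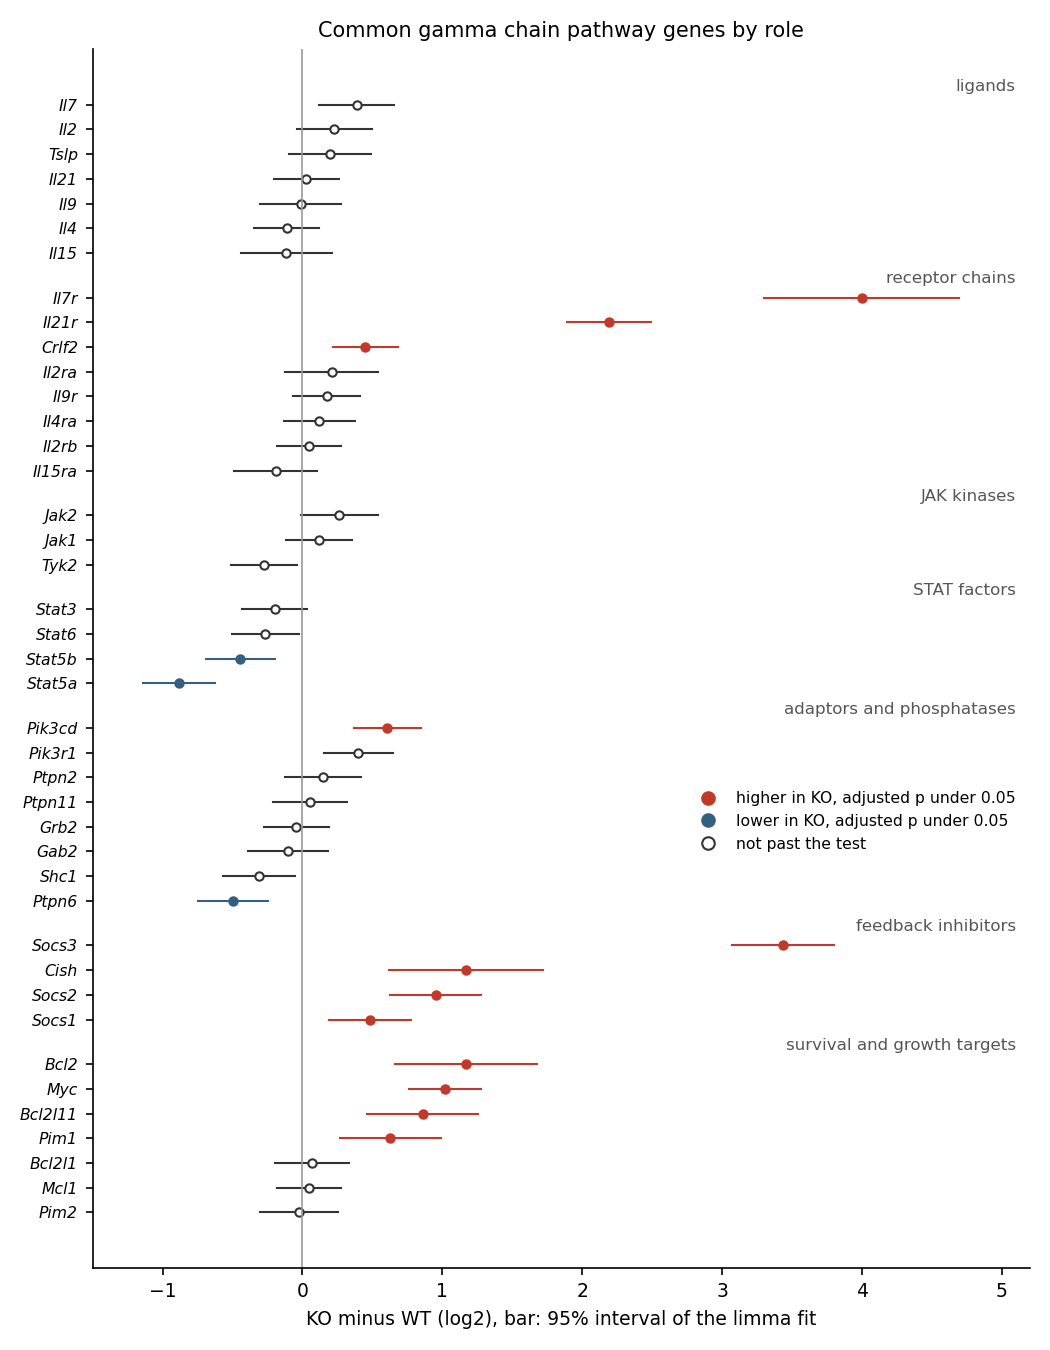
KO minus WT difference (log2, horizontal axis) of 41 measured pathway genes grouped by role; points are differences, bars 95% intervals of the limma fit, and filled points passed an adjusted p of 0.05. The 12 filled red points (higher in KO) are in the receptor, adaptor, feedback and survival groups, led by Il7r (4.0) and Socs3 (3.43), and the 3 filled blue points (lower in KO) are Stat5a, Stat5b and Ptpn6.

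Because Il7r and Il21r are typical of lymphocytes, markers of lymphoid cells were read on the same arrays. Of 23 measured markers of T cells, NK cells, group 2 innate lymphoid cells and B cells, 16 were below the array median on all 4 arrays, 1 was higher in KO and 1 lower. Over all 18782 genes, 8140 were below the median on all 4 arrays, 7.41% were higher and 6.86% lower. The T cell receptor component gene Cd3e read 3.08 and 3.20 in KO cells, against 3.03 and 2.91 in WT cells, Cd3d 1.93 and 2.12 in KO, against 1.73 and 1.87 in WT, and Cd79a, a B cell receptor gene, 3.29 and 3.49 in KO, against 3.55 and 3.26 in WT. None of these passed the test. The higher gene was Cd4, at 3.08 and 3.18 in KO cells against 2.73 and 2.69 in WT cells (difference 0.42 ± 0.10, SE; adjusted p = 0.0386), and the lower gene was Prf1, the perforin gene, by -0.73 ± 0.16 (adjusted p = 0.0332). These genes were picked for naming once their values were known.

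The summed level of the lymphoid list, as log2 of the sum of linear values, was 9.53 and 9.52 in KO cells, against 9.79 and 9.80 in WT cells, most of it from Cd2, which read 9.24 and 9.22 in KO and 9.55 and 9.58 in WT. The mean log2 level of the T cell markers was 3.41 and 3.50 in KO cells, against 3.31 and 3.44 in WT cells, and that of the B cell markers 2.84 and 2.82 in KO, against 2.96 and 2.76 in WT. The part of lymphoid cells in the levels of Il7r and Il21r was not tested. Log2 array values have no 0, so absence of a transcript cannot be read from them.

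Markers of interstitial macrophages and monocytes differed between the genotypes, in both directions. Of 5 measured interstitial macrophage markers 4 were higher and 1 lower in KO, beside 7.41% higher and 6.86% lower over all genes. The higher ones were the C1q genes C1qa, C1qb and C1qc, and Pla2g2d. Mean log2 levels of the 5 markers were 8.40 and 8.27 in KO cells, against 4.20 and 4.51 in WT cells. Their summed level was 11.2 and 11.1 in KO, against 10.6 and 10.6 in WT. Nearly all of the WT sum came from Mrc1, the lower marker, which read 10.13 and 10.16 in KO cells, against 10.6 and 10.57 in WT cells. Of 5 monocyte markers 4 were higher and 1 lower, beside the same shares over all genes, 7.41% and 6.86%. Cx3cr1 was higher by 2.91, Ccr2 by 1.82, Ace by 0.96 and Cd14 by 0.74, while Treml4 differed by -2.39. Means of the list were 7.32 and 7.19 in KO cells, against 6.39 and 6.50 in WT cells. Its summed levels were 10.6 and 10.6 in KO, against 9.83 and 9.99 in WT.

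Of 6 dendritic cell markers 1 was higher, Cd209a by 2.04, and 0 lower, beside 14.3% of all genes called in either direction. Clec9a, at 5.79 and 6.99 in KO cells against 4.56 and 5.58 in WT cells, did not pass the test. Flt3, Zbtb46, Xcr1 and Ccr7 did not pass either. Means of the list were 3.77 and 4.21 in KO cells, against 3.46 and 3.44 in WT cells. Its summed levels were 7.02 and 7.78 in KO, against 6.46 and 6.66 in WT. Of 8 alveolar macrophage markers, 2 were lower in KO, beside 6.86% of all genes, and 6 did not pass the test. Means of this alveolar list were 7.53 and 7.67 in KO cells, against 9.64 and 8.98 in WT cells. The list includes Siglecf and Itgax, whose proteins were used to gate the cells. It is therefore not an independent check of the labelled cell type. The lower genes were Siglecf and Cidec, a lipid droplet gene that read 3.96 and 4.01 in KO cells, against 9.71 and 9.59 in WT cells, and the median difference of the list was -1.19. Marco differed by -2.62 and Fabp4 by -2.07, neither past the test. Their WT arrays lay far apart, at 7.22 and 4.43 for Marco and 7.57 and 5.21 for Fabp4. For each of them both KO arrays lay below both WT arrays. Car4, Chil3 and Plet1 read above 10 on every array of both genotypes. The part of these myeloid markers, and of the CD11b-high gate of the KO cells, in the levels of Il7r and Il21r was not tested.

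**Figure D4:**
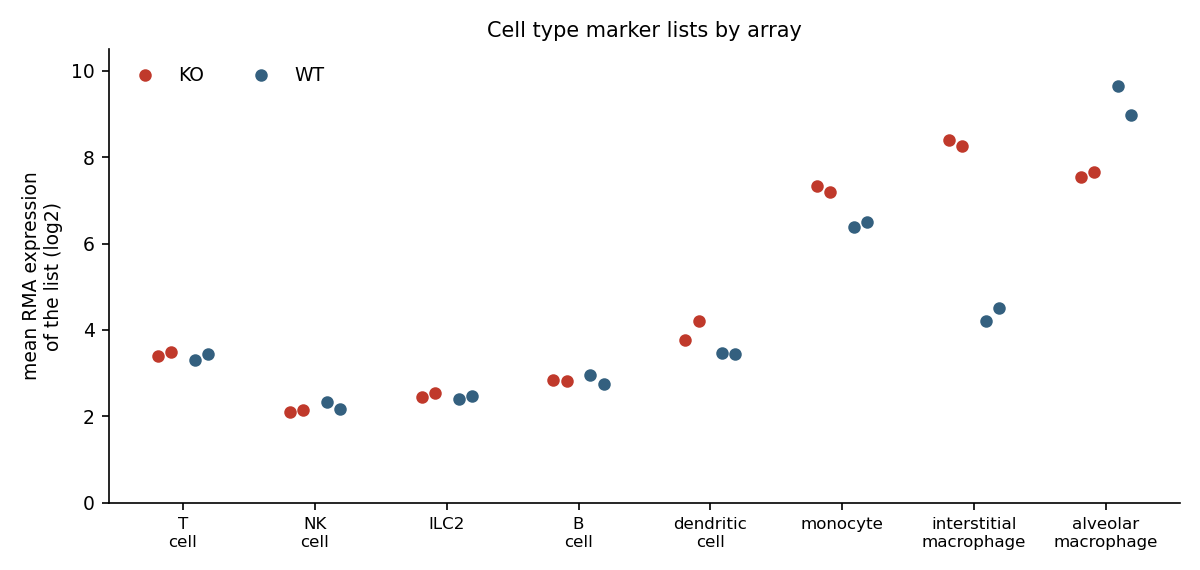
Mean RMA expression (log2, vertical axis) of 8 cell type marker lists on each array, KO red and left, WT blue and right within each list; points are arrays. T cell, NK cell, ILC2 and B cell lists lie between 2.10 and 3.50 on all arrays of both genotypes, while the interstitial macrophage list reads 8.40 and 8.27 in KO against 4.20 and 4.51 in WT.

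The 5 genes most like Il7r over the 4 arrays, by the Euclidean distance between log2 values centred on each gene's mean, were Tnfsf9 (distance 0.36), which encodes the ligand 4-1BBL, the lipase gene Aoah (0.45), the adhesion protein gene Flrt3 (0.45), H2-M2 (0.47) and Adgre5 (0.48), the gene of CD97. Tnfsf9, the closest, read 7.06 and 6.21 in KO cells, against 2.75 and 2.58 in WT cells, and like Il7r was higher on KO replicate 1 than on KO replicate 2. Il15ra had the lowest difference of the 6 genes with all arrays in the fit, but within the error, and without KO replicate 1 that of Il15 was lower (-0.22 for Il15 and -0.11 for Il15ra). Those most like it were Tacr3, P4htm, Oprd1, Tas1r2 and Ociad2, at distances from 0.016 to 0.026, and none of these 5 passed the test. Over 4 arrays such likeness reflects little more than the size of the difference and the order of the arrays.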

How the data were processed

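The members and gene lists were chosen with earlier results of these data known. The deposited values are log2 expression values per probe set, for which the submitters' processing notes name RMA and R 2.15.2. Neither the RMA settings nor a genome build is given in the sources used here. The authors' RMA left all arrays with 1 distribution (sorted values differed by at most 0.012), which hides any shift common to most transcripts.

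Of 28371 probe sets, 21158 had 1 gene symbol in the platform annotation, 1881 several and 5332 none. Entrez identifiers of 21128 were found in the RefSeq gene table, and 0 symbols changed. For genes with several probe sets the one that was brightest on average stood for the gene, and dim genes were kept. The fit of KO against WT used limma 3.58.1 under R 4.3.3 (group as the only term, empirical Bayes, two-sided, 2 residual and 4.16 prior degrees of freedom), with Benjamini-Hochberg adjustment over 18782 genes and a call at an adjusted p under 0.05. The number of arrays limits the precision. Nothing says whether the pools of a genotype came from separate experiments, so p-values measure only the spread between these pools.

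Genes named were the 8 members, pathway genes past the test with Il7, Il2, Il2rb, Il4ra, Stat5a and Stat5b, the gate genes, and the 5 genes most like the member with the largest rise and the member with the largest fall, leaving out predicted genes and microRNAs. Neighbouring genes were taken by position, and single marker genes were picked once their values were known. Alternatives were the mean of a gene's probe sets, every probe set on its own, dim genes left out, quantile normalization, an intensity trend, a robust prior, the replicate number as a block, and each array left out. The procedure was tested on simulated data for 18782 genes. It called 2 of 67 genes changed by 0.5 log2 units, 40 of 67 changed by 1 and 62 of 66 changed by 2. Of the unchanged genes 4 were called. Far fewer genes were changed there than were called in the data, so these shares need not hold for the data.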

Additional observations from a re-analysis of the deposited data

How the results depend on the processing

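Il7r and Il21r kept their direction and passed the test under all 11 alternatives, of which only leaving out an array could move their differences by much, since each has 1 probe set and the arrays already share 1 distribution. Adjusted p lay between 3.05e-05 and 0.00213 for Il7r and between 3.88e-05 and 0.0041 for Il21r. Il2ra, Il15, Il15ra and Jak1 passed under none of the alternatives that measured them. Il2ra dropped out when dim genes were left out. Leaving out 1 array gave differences from -0.25 to 0.02 for Il15, which turned to 0.02 without WT replicate 1, and from -0.12 to 0.01 for Pparg, which turned to 0.01 without KO replicate 1. Without 1 array the lone array of its genotype is assumed to vary like the others.

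Over all genes, leaving out 1 array called 724 to 1227 genes as higher and 647 to 1057 as lower in KO, against 1391 and 1289 with all arrays. The lower count comes with fewer arrays. Of the pathway list, 5 to 10 genes were then higher and 1 lower, against 12 and 3, with 5 lower under an intensity trend. Ptprc (CD45) was lower by -0.52 ± 0.10 with all arrays (SE; limma adjusted p = 0.0212). When 1 array was left out it was lower by -0.46 to -0.57 and did not always pass. Itgax (CD11c), higher by 0.24 ± 0.09, did not pass with all arrays (adjusted p = 0.168). It passed under 1 of 11 alternatives, the intensity trend (adjusted p = 0.00677).

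Arrays of the same replicate number did not deviate together (correlation -0.02 across genes). This correlation alone cannot tell whether the numbers pair the samples. With the number as a replicate block 1309 genes were higher and 1168 lower, and 11 and 2 in the pathway list. For the 17 other pathway genes named, 153 of 184 settings left the call as it was, 30 lost it, 1 gained it and 0 turned the direction.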
